A study of Mus musculus with 6 samples.

Results

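The genes described here encode the nuclear subunits of the mitochondrial respiratory chain and ATP synthase, among them the heart and muscle isoforms of cytochrome c oxidase. They were chosen by gene name, with earlier results of these data known. The rule took every gene of the count table whose mouse symbol matched a subunit name, without predicted pseudogenes. For NADH dehydrogenase the symbol begins with Nduf, then a, b, c, s or v and a digit. For succinate dehydrogenase it is Sdha to Sdhd. For cytochrome bc1, cytochrome c oxidase and ATP synthase it begins with Uqcr, Cox4 to Cox8 and Atp5. The rule gave 88 of 49315 genes. By symbol, 40 belong to complex I, 4 to complex II, 8 to complex III, 19 to complex IV and 17 to complex V. In the annotation 84 are protein coding and 4 are processed pseudogenes (Cox6c2, Ndufa11b, Ndufb4c and Ndufs6b). The expression filter kept 82 of the 88. The 6 that did not pass were these 4 and the paralogues Cox7b2 and Cox8c, all below 0.4 CPM in every library. CPM is the usual unit of read counts relative to library size, here after TMM scaling, which aligns libraries on the bulk of their genes.

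Polyadenylated RNA was sequenced from wild-type mouse cells of tail-tip skin in 6 libraries, 2 for each of 3 groups. Fibroblast libraries (day 0) carried control lentiviral vectors. Early libraries (day 7) carried CRISPR activation vectors of the SAM system, which use an inactive Cas9 to recruit transcriptional activators to promoters. Late libraries (day 22) carried CRISPR activation vectors and came from isolated colonies described as induced cardiac progenitors, so colony isolation separates them from both other groups. The sources used here do not name the genes targeted by the guides. Early replicate 2 is described as partially reprogrammed where early replicate 1 is described as early. The labels do not tell whether the replicates were separate cultures or animals, and all p-values reflect only the variation among these libraries, which may be technical. Early and late columns were assigned by their names, which are not exact sample titles.

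The respiratory chain moves electrons from NADH and succinate through complexes I to IV to oxygen, and the proton gradient that complexes I, III and IV build drives ATP synthesis in complex V. Complex II is encoded by nuclear genes alone, while the other complexes combine nuclear-encoded subunits with some from the mitochondrial genome, so that both genomes must be expressed to assemble a chain. Heart muscle is among the tissues richest in these complexes. In mouse heart and skeletal muscle, 3 small subunits of complex IV are largely exchanged: Cox6a2 for Cox6a1, Cox7a1 for Cox7a2 and Cox8b for Cox8a. Cox7a1 and Cox8b are also made in brown fat.

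The proximal promoters of these isoform genes are shown because the heart forms and the general forms differed in their pattern over the libraries. The sequences are the 250 bases before the RefSeq start of each gene in build GRCm38.p6, written 5′ to 3′ on the gene's strand. RefSeq starts need not coincide with those of the annotation used for gene positions. Capitals mark matches to any of the motifs searched on both strands, which were AGATAA (bound by factors such as Gata4), CAGCTG (an E-box), TATAAA (bound by the general factor Tbp), CCGGAAG (bound by the ETS family, which includes Gabpa) and, by name, the palindromic motif of nuclear respiratory factor 1 (Nrf1) and the MEF2 motif.
Cox7a1, chr7:30183921-30184170, plus strand: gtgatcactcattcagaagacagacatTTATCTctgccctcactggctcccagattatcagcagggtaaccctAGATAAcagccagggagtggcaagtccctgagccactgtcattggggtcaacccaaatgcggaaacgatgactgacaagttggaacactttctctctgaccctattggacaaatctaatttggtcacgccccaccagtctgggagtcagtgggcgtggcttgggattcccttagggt
Cox8b, chr7:140900447-140900696, minus strand: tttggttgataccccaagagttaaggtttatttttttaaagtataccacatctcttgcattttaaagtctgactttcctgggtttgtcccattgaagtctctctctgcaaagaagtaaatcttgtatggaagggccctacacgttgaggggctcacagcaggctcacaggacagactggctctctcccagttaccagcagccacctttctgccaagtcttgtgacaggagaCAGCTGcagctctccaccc
Cox6a1, chr5:115348959-115349208, minus strand: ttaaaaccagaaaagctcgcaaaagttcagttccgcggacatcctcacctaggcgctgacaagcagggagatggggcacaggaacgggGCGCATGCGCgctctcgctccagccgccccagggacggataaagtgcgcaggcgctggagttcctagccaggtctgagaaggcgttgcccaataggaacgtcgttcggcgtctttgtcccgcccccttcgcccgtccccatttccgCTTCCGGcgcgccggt
Cox7a2, chr9:79759854-79760103, minus strand: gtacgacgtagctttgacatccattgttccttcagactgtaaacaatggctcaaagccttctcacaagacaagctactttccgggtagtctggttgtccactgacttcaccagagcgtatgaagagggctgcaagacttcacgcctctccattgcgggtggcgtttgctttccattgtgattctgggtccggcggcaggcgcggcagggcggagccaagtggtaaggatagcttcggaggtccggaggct
Cox8a, chr19:7217617-7217866, minus strand: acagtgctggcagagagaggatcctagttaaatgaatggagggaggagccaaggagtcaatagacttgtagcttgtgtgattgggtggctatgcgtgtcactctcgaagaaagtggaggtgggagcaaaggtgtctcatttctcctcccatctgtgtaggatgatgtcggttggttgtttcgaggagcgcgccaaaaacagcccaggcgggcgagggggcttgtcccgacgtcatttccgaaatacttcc
Cox7a1, a heart form, held AGATAA letters at 223 to 218 and at 177 to 172 bases before its start, the first on the opposite strand. Cox8b, also a heart form, held CAGCTG at 19 to 14 bases before its start. Cox6a1, a general form, held the Nrf1 motif at 162 to 153 bases and CCGGAAG, on the opposite strand, at 16 to 10 bases before its start. The windows of Cox7a2 and Cox8a held none of the motifs. Over 32851 such windows of all genes, the Nrf1 motif was found in 0.782%, CCGGAAG in 6.91%, CAGCTG in 13.0%, TATAAA in 12.4%, AGATAA in 9.99% and the MEF2 motif in 2.92%. Of the 88 subunit genes 66 were matched, with 71 windows, of which 5.63% held the Nrf1 motif, 16.9% CCGGAAG, 8.45% CAGCTG, 9.86% TATAAA, 8.45% AGATAA and 0.0% the MEF2 motif. A match is a run of letters and no evidence of binding.

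Total counts ranged from 20172874 to 40122999 per library. Reads of mitochondrial genes were 10.3% of all counts in late replicate 2 and 1.48% to 2.16% in the other 5 libraries. Late replicate 2 stood apart in cell type markers as well. Its 12 cardiomyocyte markers summed to 57780 CPM, against 18.4 to 151 CPM in the other 5 libraries, late replicate 1 among them (87.4 CPM). The label of cardiac progenitors thus had cardiomyocyte markers at high level in late replicate 2 and not in late replicate 1. The 8 fibroblast markers summed to 4020 and 6222 CPM in fibroblast, 2749 and 12070 CPM in early, and 2516 and 3108 CPM in late libraries. Collagen genes gave most of these sums. Thy1 was at 361.8 and 216.5 CPM in fibroblast, 12.4 and 178 CPM in early, and 35.4 and 10.5 CPM in late libraries. Col3a1 was at 16.9 and 3881 CPM in the early libraries. Of the 8 markers, 7 had a fold change of late over fibroblast below 0 and 1 above. Their median log2 fold change was -0.73, and Thy1 had the lowest value of the 8, -3.66. For early over fibroblast 6 markers were above 0 and 2 below (median 0.91), with Thy1 at -1.60. Because the late libraries differed in cardiomyocyte markers, late levels are given by library.

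Subunit transcripts were several times more abundant in late replicate 2 than in any other library, and the other 5 libraries were close to each other. Summed over the 88 genes, the level was 8414 and 8754 CPM in fibroblast, 8417 and 6891 CPM in early, and 7323 and 33840 CPM in late libraries. Late replicate 2 was thus 4.62 times late replicate 1. In bulk RNA a larger number of cells of a type and more RNA per cell cannot be told apart. Of the 82 genes tested, 73 (89.0%) were more than 2-fold higher in late replicate 2 than in the highest of the other 5 libraries, against 7.86% of all 16688 genes tested. With libraries scaled by total counts alone these were 70 genes (85.4%), against 6.56%. The median ratio of late replicate 2 to late replicate 1 was 4.53 for the subunit genes, with quartiles of 3.69 and 5.24, and 0.961 for all genes tested. Among the other 5 libraries the median ratio of the highest to the lowest was 1.46 for the subunit genes and 2.39 for all genes tested.

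**Figure D1:**
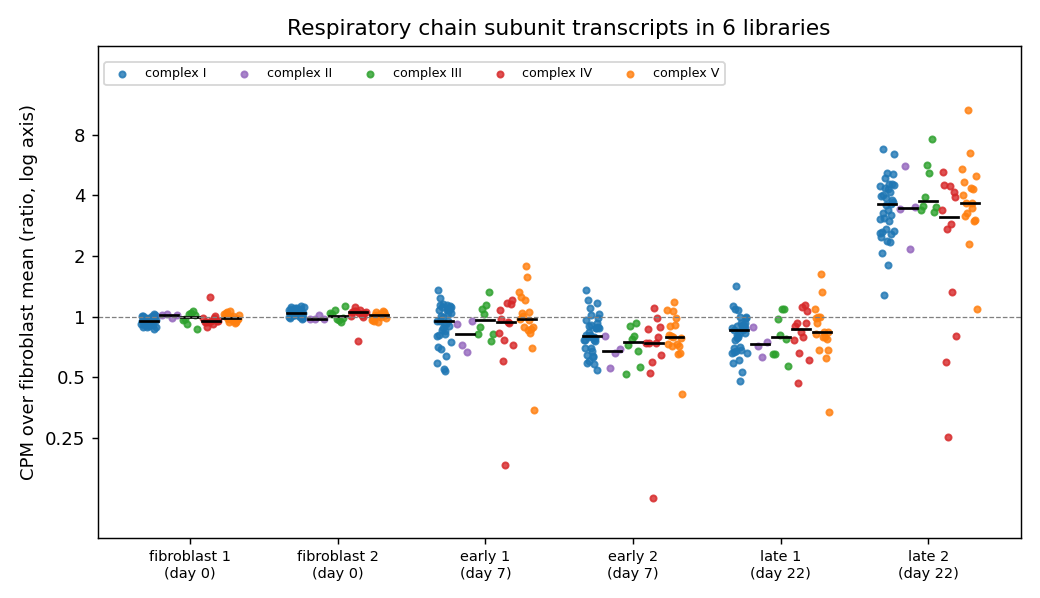
CPM of each subunit gene divided by its mean in the fibroblast libraries (log axis) for the 77 tested genes with a fibroblast mean above 5 CPM, by library and coloured by complex, with a black bar at the median of each complex. Late replicate 2 lies above the other libraries in all 5 complexes, while late replicate 1 lies with the early libraries.

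The excess in late replicate 2 was of similar size in the 5 complexes. The median ratio of late replicate 2 to late replicate 1 was 4.49 for complex I, 4.27 for complex II, 5.30 for complex III, 4.14 for complex IV and 4.74 for complex V. Summed CPM of complex I were 2250 and 2459 in fibroblast, 2239 and 1928 in early, and 1968 and 8534 in late libraries. Complex V, the ATP synthase, had 3196 and 3157 CPM in fibroblast, 3472 and 2727 CPM in early, and 2930 and 14080 CPM in late libraries. The ratio of late replicate 2 to the highest of the other 5 libraries lay between 3.22 for the sum of complex IV and 4.52 for that of complex III. The heart isoforms Cox6a2, Cox7a1 and Cox8b gave 601, 340 and 222 of the 5645 CPM of complex IV in late replicate 2. They were nearly absent elsewhere, so the ratio of complex IV without them is lower still.

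The heart isoforms were nearly absent from 5 libraries and abundant in late replicate 2. Cox6a2 (ENSMUSG00000030785, chromosome 7, 128205435 to 128206387, all gene positions on GRCm38) was at 0.168 and 1.94 CPM in fibroblast, 0.0889 and 0.0472 CPM in early, and 0.458 and 601 CPM in late libraries. These values rest on 5, 66, 2, 1, 11 and 21431 counts. Cox7a1 (ENSMUSG00000074218, chromosome 7, 30184144 to 30186078) was at 0.872 and 1.67 CPM in fibroblast, 0.845 and 0.0945 CPM in early, and 0.541 and 340 CPM in late libraries. Late replicate 1 lay below both fibroblast libraries for Cox7a1 and between them for Cox6a2, so neither gene separated late from fibroblast libraries. Cox8b (ENSMUSG00000025488, chromosome 7, 140898945 to 140900446) was at 0.0335 and 0.411 CPM in fibroblast, 0.0889 and 0.236 CPM in early, and 0.458 and 222 CPM in late libraries. For Cox8b both late libraries were above the others, the lower of them on 11 counts, against 14 counts in the more deeply sequenced fibroblast replicate 2. Cox8b also passed the expression filter only through the late libraries. Its higher late level was thus a condition of its being tested, and its separation and late fold changes are no independent result.

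The general isoforms had a different pattern. Cox6a1 (ENSMUSG00000041697, chromosome 5, 115345642 to 115348981) was at 245 and 308 CPM in fibroblast, 166 and 146 CPM in early, and 129 and 165 CPM in late libraries. Cox8a (ENSMUSG00000035885, chromosome 19, 7215153 to 7217616) was at 174 and 194 CPM in fibroblast, 133 and 119 CPM in early, and 112 and 147 CPM in late libraries. For both genes all early and late libraries lay below both fibroblast libraries, and late replicate 2 was no exception. Cox7a2 (ENSMUSG00000032330, chromosome 9, 79755361 to 79759878) was at 58.6 and 69.2 CPM in fibroblast, 60.3 and 47.1 CPM in early, and 50.6 and 184 CPM in late libraries. Cox7a2 thus went with the other subunits in late replicate 2, at 3.63 times late replicate 1, where Cox6a1 was at 1.27 times and Cox8a at 1.31 times.

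Because the paired genes differ in length, their shares were computed on counts per kilobase of the longest annotated transcript. In late replicate 2, Cox6a2 made up 75.4% of the Cox6a2 and Cox6a1 level (exact 95% interval 74.9% to 75.9%), Cox7a1 71.5% of its pair (70.9% to 72.1%) and Cox8b 69.8% of its pair (69.0% to 70.5%). In late replicate 1 the shares were 0.297%, 1.43% and 0.621%. Over the 4 fibroblast and early libraries they lay between 0.0272% and 0.525% for Cox6a2, 0.272% and 3.18% for Cox7a1, and 0.0294% and 0.323% for Cox8b. On raw counts without length, the shares in late replicate 2 were 78.5%, 64.9% and 60.2%. These intervals cover counting error only, and 2 libraries against 2 cannot give an exact two-sided permutation p below 0.333.

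**Figure D2:**
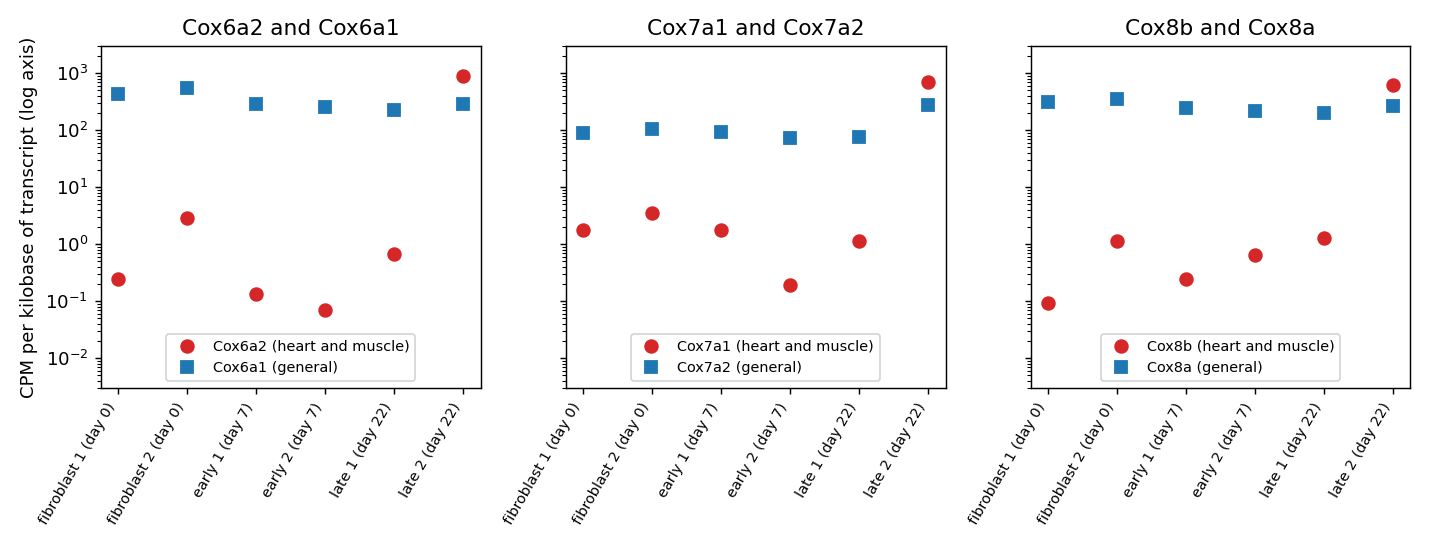
CPM per kilobase of transcript (log axis) of each heart and muscle isoform (red circles) and its general counterpart (blue squares) in the 6 libraries, 1 point per library. The heart isoform lies above the general one in late replicate 2 alone, at 75.4%, 71.5% and 69.8% of the pair.

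The small heart isoform counts outside late replicate 2 were not spread evenly over libraries. Fibroblast replicate 2 held Cox6a2 at 0.323% of its level in late replicate 2, Cox7a1 at 0.493% and Cox8b at 0.185%. In the same library, the cardiomyocyte genes Myh6, Actc1, Tnnt2, Tnni3, Ttn, Myl2 and Myl7 were at 0.245% to 0.307% of their level in late replicate 2. Fibroblast replicate 1 held Cox6a2 at 0.0279%, Cox8b at 0.0151% and Myh6 at 0.0309%, but Cox7a1 at 0.257%. Early replicate 1 likewise held Cox7a1 at 0.249%, with Myh6 at 0.0230%. In late replicate 1, Cox6a2 was at 0.0762%, Cox7a1 at 0.159% and Cox8b at 0.206%. The cardiomyocyte genes named above were at 0.100% (Myl2) to 0.258% (Tnnt2) there. In early replicate 2, Cox6a2 was at 0.00786%, Cox7a1 at 0.0278% and Cox8b at 0.106%. The same cardiomyocyte genes were at 0.0220% (Myl2) to 0.612% (Tnnt2) there. A source shared by these counts was not tested.

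None of the 3 heart isoforms passed the test between late and fibroblast libraries, given the distance between the late libraries. The edgeR log2 fold change of late over fibroblast was 8.14 ± 3.10 for Cox6a2 (SE, adjusted p = 0.144), 7.05 ± 2.72 for Cox7a1 (adjusted p = 0.147) and 8.90 ± 2.94 for Cox8b (adjusted p = 0.116). Without late replicate 2 it was -1.21 for Cox6a2, -1.24 for Cox7a1 and 1.0 for Cox8b. For the general forms it was -0.91 ± 0.25 for Cox6a1 (adjusted p = 0.0851), 0.88 ± 0.60 for Cox7a2 (adjusted p = 0.343) and -0.50 ± 0.23 for Cox8a (adjusted p = 0.190). Between late and early libraries it was 8.47 ± 2.95 for Cox7a1 (adjusted p = 0.451) and 9.39 ± 3.07 for Cox8b (edgeR, adjusted p = 0.434). Cox6a2 had 3 counts over both early libraries, so only a ratio of counts is given for it, 5226 for late over early (exact 95% interval 1788 to 25350). Of the late counts 21431 came from late replicate 2, and without it the ratio was 6.66 (1.76 to 37.2). Early over fibroblast the ratio was 0.0618 (0.0125 to 0.188), where 66 of the fibroblast counts came from fibroblast replicate 2. Without that library it was 0.410 (0.0637 to 2.11).

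Other paralogous subunits were less uniform. Cox4i2, the lung form of subunit 4 that is regulated by oxygen, was at 0.134 and 0.587 CPM in fibroblast, 0.0445 and 0.142 CPM in early, and 0 and 5.58 CPM in late libraries. Its share of the Cox4i pair per length was at most 0.459%, so that Cox4i1 made up nearly all of this subunit in all 6 libraries. Ndufa4l2, a paralogue of Ndufa4 that is induced by hypoxia, was at 1.34 and 4.70 CPM in fibroblast, 0 and 2.13 CPM in early, and 0.0832 and 11.7 CPM in late libraries. It differed between the libraries of every group. Ndufa4, named after complex I and since assigned to complex IV, was at 102 and 117 CPM in fibroblast, 104 and 64.6 CPM in early, and 84.1 and 441 CPM in late libraries. Cox7b, the general form of subunit 7b, was at 80.7 and 79.6 CPM in fibroblast, 92.5 and 63.3 CPM in early, and 74.7 and 332 CPM in late libraries, while Cox7b2 had at most 0.0587 CPM. Cox8c, a testis form, had no counts in any library, which allows a level of up to 0.0841 to 0.142 CPM.

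Cox6b2, the testis form of subunit 6b, was the only tested subunit gene whose level in late replicate 2 was below 0.5 times the highest of the other 5 libraries. It was at 14.6 and 8.81 CPM in fibroblast, 2.13 and 1.47 CPM in early, and 9.78 and 2.94 CPM in late libraries. Per length it made up 10.7% and 5.99% of the Cox6b pair in fibroblast, 2.10% and 1.86% in early, and 10.3% and 0.824% in late libraries. Late replicate 1 thus lay with the fibroblast libraries and late replicate 2 with the early ones. The edgeR log2 fold change of early over fibroblast was -2.69 ± 0.74 (adjusted p = 0.0925), the smallest adjusted p of any subunit gene in that comparison. Its general counterpart Cox6b1 was at 128 and 146 CPM in fibroblast, 105 and 81.7 CPM in early, and 90.5 and 374 CPM in late libraries.

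Subunit c, which forms the rotor ring of ATP synthase, is encoded by Atp5g1, Atp5g2 and Atp5g3, whose mature proteins are the same. Atp5g1 was at 71.7 and 74.2 CPM in fibroblast, 88.4 and 57.7 CPM in early, and 73.0 and 774 CPM in late libraries. Its ratio of late replicate 2 to late replicate 1, 10.6, was the highest outside the heart isoforms and Ndufa4l2, among tested genes with counts in both late libraries. Atp5g2 was at 81.4 and 71.7 CPM in fibroblast, 136 and 81.2 CPM in early, and 125 and 176 CPM in late libraries, a ratio of 1.41. Atp5g3 was at 161 and 162 CPM in fibroblast, 255 and 190 CPM in early, and 214 and 1047 CPM in late libraries. Per length, Atp5g1 held 8.89% of subunit c transcripts in late replicate 2, against 3.19% to 4.69% in the other 5 libraries, Atp5g2 12.7% against 28.1% to 34.7%, and Atp5g3 78.5% against 62.1% to 68.7%. Per length, the shares of late replicate 2 lay outside the range of the other libraries for all 3 genes. The longest transcript of Atp5g1, 4715 bases, against 753 for Atp5g2 and 723 for Atp5g3, lowers its share per length. On CPM without length, Atp5g1 exceeded Atp5g2 in late replicate 2 and, narrowly, in fibroblast replicate 2 (74.2 against 71.7 CPM). The shares of CPM in late replicate 2 lay outside that range for Atp5g1 and Atp5g2, but not for Atp5g3. The log2 fold change of late over fibroblast was 2.54 ± 1.04 for Atp5g1, 0.97 ± 0.33 for Atp5g2 and 1.97 ± 0.73 for Atp5g3 (edgeR, adjusted p = 0.164, 0.122 and 0.140). Without late replicate 2 it was -0.01, 0.70 and 0.40.

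Abundant subunits of each complex followed the common pattern. Ndufs1, a core subunit that binds several iron-sulfur clusters of complex I, was at 116 and 119 CPM in fibroblast, 127 and 91.9 CPM in early, and 101 and 488 CPM in late libraries. Sdha, the flavoprotein of succinate dehydrogenase, was at 336 and 320 CPM in fibroblast, 301 and 262 CPM in early, and 290 and 1127 CPM in late libraries. In both of these genes late replicate 1 lay below both fibroblast libraries and late replicate 2 above all others after TMM scaling. With total counts alone, late replicate 1 lay above both fibroblast libraries in both genes, and late replicate 2 was still the highest. Sdhc, a membrane anchor of complex II, was at 155 and 161 CPM in fibroblast, 105 and 104 CPM in early, and 99.5 and 340 CPM in late libraries.

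Uqcrc1, a core protein of complex III, was at 166 and 156 CPM in fibroblast, 165 and 125 CPM in early, and 130 and 914 CPM in late libraries. Uqcrc2, the other core protein, was at 108 and 101 CPM in fibroblast, 120 and 83.9 CPM in early, and 114 and 542 CPM in late libraries. For Uqcrc2 both late libraries were above both fibroblast libraries. Cox4i1, the largest nuclear subunit of complex IV, was at 371 and 380 CPM in fibroblast, 313 and 279 CPM in early, and 288 and 1263 CPM in late libraries. Cox5b, a zinc-binding subunit of complex IV, was at 130 and 147 CPM in fibroblast, 134 and 102 CPM in early, and 128 and 620 CPM in late libraries. Atp5b, the catalytic beta subunit of ATP synthase, was the highest per kilobase of all subunit genes, and Atp5a1, the alpha subunit, ranked 4. Atp5b was at 1086 and 1059 CPM in fibroblast, 1045 and 788 CPM in early, and 882 and 4310 CPM in late libraries. Atp5a1 was at 641 and 600 CPM in fibroblast, 823 and 669 CPM in early, and 673 and 3339 CPM in late libraries, with all early and late libraries above both fibroblast libraries.

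Between late and fibroblast libraries, 77 of the 82 subunit genes tested had a fitted fold change above 0 (54.1% of all genes tested did) and 5 below, with a median log2 fold change of 1.18, against 0.11 for all genes tested. None of the 82 passed the test (edgeR, adjusted p under 0.05), where 1.42% of all genes did. At an unadjusted p under 0.05 there were 7 subunit genes (8.54%, against 32.5% of all genes tested), and by DESeq2, adjusted, 6: Cox6a1, Cox6a2, Cox7a1, Cox8b, Atp5g1 and Atp5g3 (7.23% of those with an adjusted p, against 24.9% of all such genes). The smallest adjusted p, 0.0851, belonged to Cox6a1. The fold change was 1.11 ± 0.62 for Sdha, 1.70 ± 0.86 for Uqcrc1, 1.05 ± 0.67 for Cox4i1 and 1.27 ± 0.73 for Atp5b (log2 ± SE). Their adjusted p from edgeR lay between 0.227 and 0.316. Without late replicate 2 the median was -0.28, with 13 genes above 0 and 69 below and none called. Without late replicate 1 it was 1.79 and 50 of 83 subunit genes were called (60.2%, against 5.67% of all genes tested in that fit), with late replicate 2 as the only late library and its spread taken from the other groups.

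Both late libraries lay above both fibroblast libraries for 12 of 82 subunit genes (14.6%, against 35.7% of all genes tested) and below both for 2, Cox6a1 and Cox8a (2.44%, against 32.9%). These shares depended on the scaling. With total counts alone, both late libraries lay above for 45 genes (54.9%, against 38.7%), and the median of all genes moved to 0.27 where that of the subunit genes was 1.20. Late replicate 1 alone was below both fibroblast libraries for 57 genes (69.5%, against 44.8%) after TMM scaling and for 27 (32.9%, against 31.3%) with total counts. Ndufa6, an accessory subunit of complex I singled out after its values were seen, was among those higher in both late libraries, at 57.2 and 132 CPM in late against 39.0 and 41.4 CPM in fibroblast libraries. Its log2 fold change was 1.23 ± 0.41 (edgeR, adjusted p = 0.118), and 0.50 without late replicate 2.

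Between late and early libraries, 81 of 82 subunit genes had a fitted fold change above 0 (47.1% of all genes tested did), with a median log2 fold change of 1.39, against -0.03 for all genes tested. None of the subunit genes passed the edgeR test at an adjusted p under 0.05, and neither did any of the 16688 genes (0.0%). At an unadjusted p under 0.05 there were 3 subunit genes and 1709 genes in all (3.66%, against 10.2%), and DESeq2 called 3 and 1087 (3.66%, against 6.21% of all genes with an adjusted p). By both methods the 3 were the heart isoforms Cox6a2, Cox7a1 and Cox8b, which were abundant in late replicate 2 alone. Both late libraries lay above both early libraries for 8 subunit genes (9.76%, against 16.1% of all genes tested) and below both for 0 (17.6% of all genes tested). Cox6a1 was the gene with a fold change below 0, at 129 and 165 CPM in late and 166 and 146 CPM in early libraries (log2 fold change -0.09 ± 0.24, edgeR adjusted p = 0.944). Without late replicate 2 the median was -0.06, with 24 genes above 0 and 58 below. Without late replicate 1, 42 of 83 were called (50.6%, against 3.22% of all genes tested in that fit).

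Early and fibroblast libraries had closer values. Of the 82 genes, 15 had a fitted fold change above 0 (50.2% of all genes tested did) and 67 below, with a median log2 fold change of -0.22, against 0.00 for all genes tested. None passed the test (edgeR, adjusted p under 0.05), where 1.53% of all genes did. At an unadjusted p under 0.05 there were 2, Cox6a1 and Cox6b2 (2.44%, against 29.8% of all genes tested), and DESeq2, adjusted, called the same 2 (2.41% of those with an adjusted p, against 21.5% of all such genes). Both early libraries lay below both fibroblast libraries for 40 genes (48.8%, against 34.4% of all genes tested) and above both for 6 (7.32%, against 32.3%). With total counts alone the imbalance was smaller, with 23 genes below (28.0%, against 27.8%), 13 above (15.9%, against 38.9%) and a median of -0.05, where the median of all genes moved to 0.17. Cox6a1 averaged 156 CPM in early and 277 CPM in fibroblast libraries (log2 fold change -0.83 ± 0.25, edgeR adjusted p = 0.103). Cox8a averaged 126 CPM in early and 184 CPM in fibroblast libraries (-0.54 ± 0.23, edgeR adjusted p = 0.183). The highest fold change was that of Atp5g2, 0.51 ± 0.33 (edgeR adjusted p = 0.354). The 3 comparisons share libraries, so that the early values enter 2 of them and the late values 2.

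The 9 tested genes that were not more than 2-fold higher in late replicate 2 than in all other libraries were a mixed group. By the ratio of late replicate 2 to the highest of the other 5, they were Cox6b2 (0.202), Cox6a1 (0.534), Cox8a (0.760), Atp5s (1.08), Cox7a2l (1.17), Ndufa7 (1.21), Atp5g2 (1.29), Ndufb6 (1.63) and Ndufa2 (1.92). Cox6a1 and Cox8a are the general partners of heart isoforms, and Atp5g2 and Cox6b2 have paralogues in the same complex. Cox7a2l, a factor that joins complexes III and IV in supercomplexes, was at 124 and 128 CPM in fibroblast, 117 and 123 CPM in early, and 143 and 167 CPM in late libraries, and its log2 fold change of late over fibroblast was 0.30 ± 0.19 (edgeR adjusted p = 0.316). Atp5s, also known as coupling factor B, was at 11.3 and 10.9 CPM in fibroblast, 3.82 and 4.58 CPM in early, and 3.70 and 12.1 CPM in late libraries. The accessory subunits Ndufa7, Ndufb6 and Ndufa2 were at 107, 113 and 95.3 CPM in late replicate 2. At the other end, after the isoforms and paralogues, came Sdhb, the iron-sulfur subunit of complex II, with a ratio of late replicate 2 to late replicate 1 of 7.81, then Uqcrc1 and Uqcrfs1, the Rieske protein of complex III, with 6.97.

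**Figure D3:**
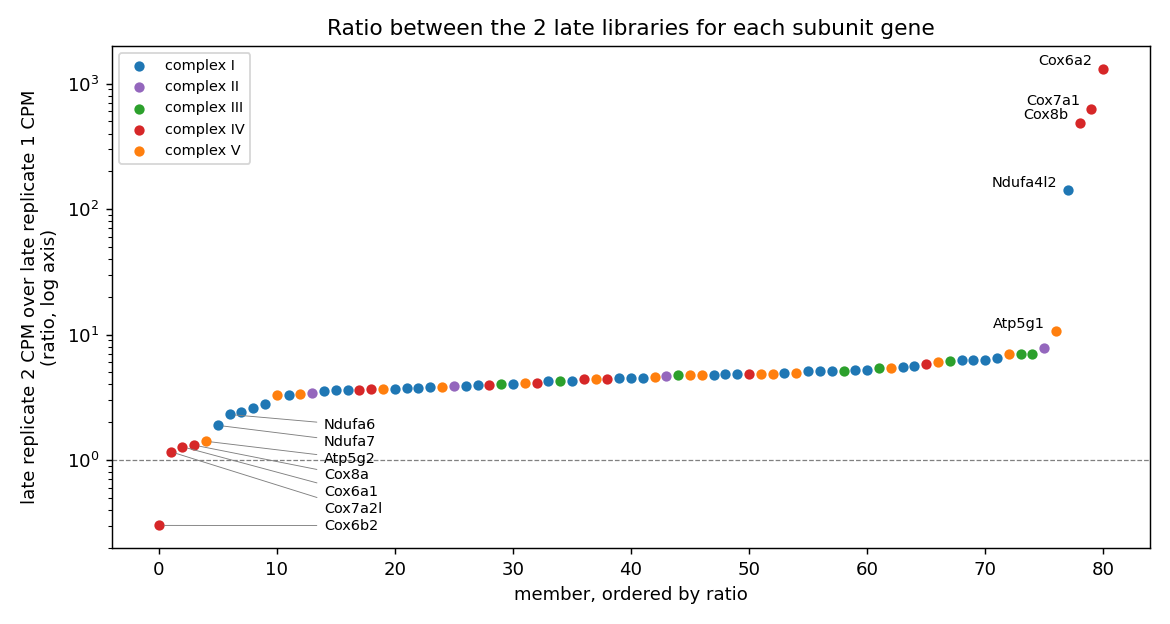
Ratio of late replicate 2 to late replicate 1 (CPM, log axis) for the 81 tested subunit genes with counts in late replicate 1, ordered by ratio and coloured by complex. The 3 heart isoforms stand above all others, most genes lie near the median of 4.53, and Cox6a1, Cox8a, Cox7a2l and Atp5g2 lie near 1.

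Other genes of the pathway were grouped in 4 lists, and 0 of their 72 tested genes were called in any comparison (edgeR, adjusted p under 0.05). Between late and fibroblast libraries 15 of the 72 had an unadjusted p under 0.05 (20.8%, against 32.5% of all genes tested) and DESeq2 called 14 (19.4%, against 24.9%). Between late and early libraries these were 5 (6.94%, against 10.2%) and 6 (8.33%, against 6.21%), and between early and fibroblast libraries 8 (11.1%, against 29.8%) and 6 (8.33%, against 21.5%). The 13 subunits encoded by the mitochondrial genome summed to 19550 and 16740 CPM in fibroblast, 16410 and 20770 CPM in early, and 12410 and 114900 CPM in late libraries. All 13 had a fold change of late over fibroblast above 0, with a median log2 fold change of 2.02 (-0.39 without late replicate 2). Late replicate 1 had the lowest sum and late replicate 2 the highest. Of the 4 smallest adjusted p from edgeR, that of mt-Nd3, a subunit of complex I, was 0.0786, at 8.74 and 49.8 CPM in late against 0.201 and 0.558 CPM in fibroblast libraries. Early libraries held mt-Nd3 at 22.5 and 2.79 CPM, also above both fibroblast libraries. The others, mt-Nd4l, mt-Co3 and mt-Atp8, were at most 14.2 CPM in any library, while mt-Co1, named here for its level, reached 47630 CPM. Parts of the mitochondrial genome have near-identical nuclear copies, and the sources used here do not tell how reads with several matches were treated, so levels of single mitochondrial genes are uncertain. The same holds for nuclear subunits with processed copies.

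Regulators of mitochondrial biogenesis were mixed. Their 13 genes summed to 393 and 394 CPM in fibroblast, 458 and 379 CPM in early, and 402 and 704 CPM in late libraries, and 10 of 12 tested had a fold change of late over fibroblast above 0 (median log2 fold change 0.65, and 0.07 without late replicate 2). Tfam, which packages mitochondrial DNA and helps to start its transcription, was at 39.6 and 47.9 CPM in late against 22.7 and 25.8 CPM in fibroblast libraries (log2 fold change 0.85 ± 0.22, edgeR adjusted p = 0.0799). Gabpa, an ETS factor also known as NRF2 alpha, was at 63.6 and 65.3 CPM in late against 103 and 105 CPM in fibroblast libraries (-0.69 ± 0.18, edgeR adjusted p = 0.0823). Polg, the mitochondrial DNA polymerase, was at 81.3 and 94.5 CPM in late against 42.9 and 49.2 CPM in fibroblast libraries (0.93 ± 0.27, edgeR adjusted p = 0.0961). In these 3 genes the late libraries were close to each other and lay apart from both fibroblast libraries. The early libraries lay on the same side of the fibroblast libraries as the late ones. Early levels were 43.3 and 44.2 CPM for Tfam, 77.8 and 69.4 CPM for Gabpa, and 80.1 and 52.1 CPM for Polg. Ppargc1b, a coactivator of biogenesis, was at 0.915 and 29.8 CPM in late against 0.369 and 0.323 CPM in fibroblast libraries (5.46 ± 1.67, edgeR adjusted p = 0.103). Its relative Ppargc1a, singled out after its values were seen, was at 0.874 and 68.5 CPM in late against 1.07 and 1.20 CPM in fibroblast libraries.

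Assembly factors, which build the complexes without being part of them, differed less between the libraries. The 37 listed genes summed to 904 and 886 CPM in fibroblast, 770 and 746 CPM in early, and 727 and 1279 CPM in late libraries. Of 35 tested, 22 had a fold change of late over fibroblast above 0 and 13 below, with a median log2 fold change of 0.07, where that of the subunits was 1.18. Without late replicate 2 these medians were -0.31 and -0.28. Coa7, a complex IV assembly factor, was at 12.9 and 22.5 CPM in late against 8.98 and 8.19 CPM in fibroblast libraries, and Cox10, which makes heme O for complex IV, was at 14.6 and 54.3 CPM against 11.2 and 12.7 CPM. Surf1, another complex IV factor, was at 31.0 and 32.5 CPM in late against 41.7 and 49.1 CPM in fibroblast libraries. Bcs1l, which inserts the Rieske protein into complex III, was at 19.3 and 33.3 CPM in late against 16.3 and 14.8 CPM in fibroblast libraries. Adjusted p from edgeR lay between 0.134 and 0.187 for these 4 genes.

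Carriers and genes of energy transfer were highest in late replicate 2 by their sum and include isoform pairs of their own. Their 14 genes summed to 2563 and 2525 CPM in fibroblast, 2439 and 1971 CPM in early, and 2008 and 14470 CPM in late libraries. Mb alone gave 5151 CPM of the sum in late replicate 2. Not every gene was highest there: Ckb peaked in fibroblast replicate 2 (111 CPM, against 69.2 CPM in late replicate 2), Slc25a5 in early replicate 1 and Ckmt1 in late replicate 1. Of 12 tested, 11 had a fold change of late over fibroblast above 0 (median log2 fold change 1.23, and -0.30 without late replicate 2). Ckmt2, the mitochondrial creatine kinase of heart and skeletal muscle, was at 0.999 and 882 CPM in late against 0.369 and 2.26 CPM in fibroblast libraries. Ckmt1, the ubiquitous mitochondrial form, had the reverse order of the late libraries, at 13.4 and 1.79 CPM in late, against 0.235 and 0.117 CPM in fibroblast libraries (log2 fold change 5.40 ± 1.20, edgeR adjusted p = 0.0702). Early libraries held Ckmt1 at 5.51 and 7.04 CPM, also above both fibroblast libraries. Ckm, the muscle creatine kinase of the cytosol, was at 1.79 and 1412 CPM in late against 0.503 and 3.38 CPM in fibroblast libraries. Slc25a5, the general ATP and ADP carrier, was at 307 and 387 CPM in late against 170 and 166 CPM in fibroblast libraries (1.04 ± 0.36, edgeR adjusted p = 0.124). Early libraries held Slc25a5 at 461 and 242 CPM, also above both fibroblast libraries. Slc25a4, its heart and muscle form, made up 73.0% and 73.8% of the pair per length in fibroblast, 43.2% and 56.6% in early, and 48.7% and 84.9% in late libraries. This carrier, unlike the heart isoforms of complex IV, was thus the main form in the fibroblast libraries too.

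**Figure D4:**
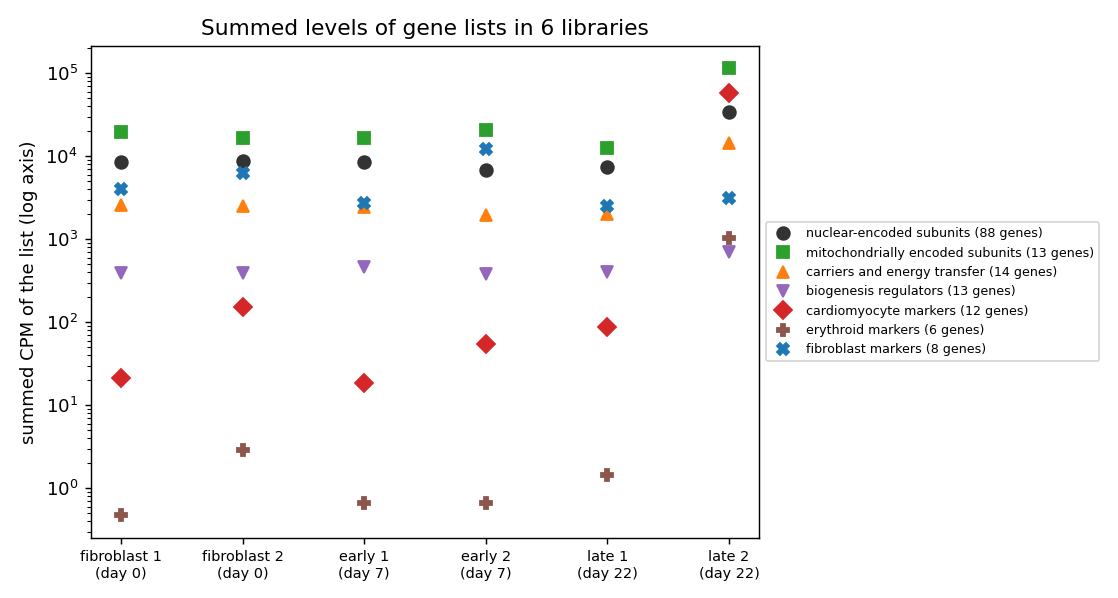
Summed CPM (log axis) of the 88 nuclear-encoded subunits and of 6 gene lists in the 6 libraries, 1 point per list and library. Nuclear and mitochondrially encoded subunits, carriers, cardiomyocyte markers and erythroid markers are highest in late replicate 2, where cardiomyocyte markers reach 57780 CPM.

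Markers of several cell types were, like the subunits, highest in late replicate 2. All 12 cardiomyocyte markers were at or above 384 CPM there. Skeletal muscle markers summed to 1504 CPM in late replicate 2 and 8.61 to 30.1 CPM in the other libraries, but Ckm, which heart also makes, gave 1412 CPM of this, and Myod1 and Myog had 0 counts in all 6 libraries. Markers of brown or white fat summed to 301 CPM in late replicate 2, 245 CPM of it from Fabp4, and 0.999 to 11.9 CPM in the others, with Ucp1 at 8.80 CPM and Cidea at 21.1 CPM. Erythroid markers summed to 1041 CPM in late replicate 2 and 0.469 to 2.91 CPM in the others, and endothelial markers to 550 CPM and 1.73 to 22.8 CPM. Macrophage markers, by contrast, were highest in the fibroblast libraries, at 260 and 1067 CPM. They summed to 115 and 50.8 CPM in early and 71.0 and 175 CPM in late libraries. The part of these cell types in the subunit levels was not tested.

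The genes whose pattern was most like the mean of the 3 heart isoforms were Asb2, Lmod2, Myl7, Smyd1 and Nrap. Likeness was the root mean square difference of centred log2(CPM + 0.5) over the 6 libraries, and the 5 genes differed from the mean of the isoforms by 0.139 to 0.208. They were at 428, 259, 384, 425 and 399 CPM in late replicate 2 and reached at most 1.38 CPM elsewhere. Lmod2, Myl7 and Nrap encode proteins of the heart sarcomere or its attachment. With 1 library far above the rest, such likeness rests on that library.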

How the data were processed

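Polyadenylated RNA of 6 libraries, 2 per group, was measured. The values are read counts by Ensembl identifier, deposited without normalization. The submitters' processing notes list the build GRCm38 and the tools STAR 2.5.2b, Subread 1.5.2, featureCounts and Trimmomatic 0.36. Strand setting, annotation release and the treatment of reads with several matches were not given in the sources used here.

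Symbols came from GENCODE release M21, which matched 49056 of 49315 identifiers. The main test was the robust quasi-likelihood test of edgeR 4.0.16 (R 4.3.3) on all 6 libraries, with TMM scaling, 3 group means, no block and 3 residual degrees of freedom. The default expression filter of edgeR left 16688 genes. The common biological coefficient of variation was 48.6%. P-values were adjusted by Benjamini-Hochberg over all genes tested and called under 0.05. The SE of a log2 fold change is its absolute value divided by the square root of the F statistic of this test. Alternatives were DESeq2 1.42.0, other scalings, no filter, a replicate block and leaving out each library. Total counts were 20172874 to 40122999, and a floor of 3 counts corresponds to 0.0841 to 0.142 CPM. Exact 95% intervals and floors cover counting error only.

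Members and gene lists were chosen with earlier results of these data known. Named were the isoforms and their paralogues, the 2 members of each complex with the highest mean CPM, the highest and lowest fold change of each comparison, the 4 members of each pathway list with the smallest adjusted p in late against fibroblast, and the 5 genes most like the heart isoforms; others are marked or described by a ratio. Not every gene that this rule names is reported here. Promoter sequences, without that of Cox6a2, are from RefSeq on GRCm38.p6. If the reading of the column names were wrong, early and late values would change places.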

Additional observations from a re-analysis of the deposited data

Results flagged for a closer look

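After TMM scaling, Cox7a2l, the supercomplex factor of complexes III and IV, had its early and late libraries on opposite sides of both fibroblast libraries. This held for 1 of the 82 tested subunit genes. Cox7a2l averaged 126 CPM in fibroblast, 120 CPM in early and 155.3 CPM in late libraries. The margin was narrow, with early replicate 2 at 123.4 CPM and fibroblast replicate 1 at 124.0 CPM. With total counts alone, both early libraries lay above both fibroblast libraries, on the same side as the late ones. The difference between late and early libraries was a log2 fold change of 0.37 ± 0.19 (edgeR adjusted p = 0.569), with both late libraries above both early ones. Groups of 2 libraries are too small for a check of single outlying libraries.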

How the results depend on the processing

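Scaling by the size factors of DESeq2 within edgeR changed no count of called genes by more than 1.5 times. For early against fibroblast, 522 genes were called with total counts, 450 with total counts without the mitochondrial genome, 2337 without the expression filter, 4027 by DESeq2 and 0 to 823 when 1 library was left out. Subunit genes called were 1 without the filter (Cox6b2) and 2 by DESeq2. For late against fibroblast, 2495 genes were called without the filter, 4661 by DESeq2 and 0 to 1058 with 1 library left out, and of the subunit genes 2 (Cox6a1 and Ndufa6), 6 and 0 to 50. For late against early the counts were 276, 1087 and 0 to 601 genes, with 3 subunit genes by DESeq2 and 0 to 42 with 1 library left out. With 1 library left out, the median log2 fold change of the subunit genes lay between -0.28 and 1.79 for late against fibroblast and between -0.06 and 1.98 for late against early. The log2 fold change of late against fibroblast then lay between -1.21 and 10.75 for Cox6a2, -1.24 and 7.96 for Cox7a1, -0.34 and 1.44 for Cox7a2, -0.18 and 1.69 for Sdha, -0.31 and 2.42 for Uqcrc1, -0.39 and 1.66 for Cox4i1, -0.29 and 1.92 for Atp5b, and -0.01 and 3.32 for Atp5g1. The lowest value was without late replicate 2 for these 8 genes and both medians. Of the other genes followed, the sign held without late replicate 2 for Cox8b (1.0), Atp5g3 (0.40), Atp5g2 (0.70), Ndufa6 (0.50), Cox6a1 (-1.11) and Cox8a (-0.72). For Cox8b this carries little weight, as the gene passed the expression filter only through the late libraries. A fit without 1 library assumes that the lone library of its group varies like the others.

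Labels give the groups the same replicate numbers without saying what they mark, and the deviations of same-numbered libraries correlated at 0.141 for early and fibroblast, 0.187 for late and fibroblast and 0.0652 for late and early. With the replicate block, 26 genes were called for early against fibroblast, 9 for late against fibroblast and 0 for late against early, with no subunit gene among them.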
